A study of Mus musculus with 6 samples.

Results

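The 10 genes described here encode the enzymes and the chaperone that turn a newly made procollagen chain into a secreted, trimmed collagen: the lysyl hydroxylases Plod1, Plod2 and Plod3, the prolyl 4-hydroxylase alpha subunits P4ha1, P4ha2 and P4ha3, their shared beta subunit P4hb, the procollagen chaperone Serpinh1, and the propeptide processing genes Pcolce and Bmp1. They were chosen by gene symbol for these roles, with earlier results of these data known, and are 10 of the 56691 genes listed. All 10 passed the filter on low counts. They were measured by bulk RNA sequencing in primary hepatic stellate cells, the vitamin A-storing mesenchymal cells that become the main collagen producers of an injured liver, taken from the livers of wild-type mice. Each of 3 groups had 2 libraries. Control cells are the reference group, TGF-beta cells received TGF-beta, the cytokine classically used to activate stellate cells, and TGF-beta-K-80003 cells received TGF-beta and K-80003, a compound known as a ligand of the nuclear receptor RXRα. K-80003 was given only together with TGF-beta, so its action on otherwise unstimulated cells was not measured. The series' title asks how RXRα bears on stellate cell activation, and the comparisons here ask how collagen processing genes moved with TGF-beta and when K-80003 was added to it. Doses, treatment times, the age of the mice and the number of mice behind each library are not given in the sources used here. The p-values therefore measure the spread between these libraries only, which may be technical.

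Procollagen chains are synthesised into the endoplasmic reticulum, where prolyl 4-hydroxylase, a tetramer of alpha subunits and the protein disulfide isomerase P4HB, hydroxylates prolines that keep the triple helix stable at body temperature. Lysyl hydroxylases modify lysines that later carry sugars or form cross-links, and PLOD2 acts on the telopeptides, giving the stable cross-links typical of fibrotic tissue. Both kinds of hydroxylase need iron, oxygen, 2-oxoglutarate and ascorbate. HSP47, the product of Serpinh1, binds the folded triple helix until it leaves the endoplasmic reticulum, and outside the cell BMP1 cleaves the C-terminal propeptide with the help of the enhancer encoded by Pcolce.

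Summed counts ran from 15646093 to 19004144 per library, so 3 counts correspond to between 0.157 and 0.188 CPM, a unit that sets every library to the same total, after TMM correction for composition. The members together held between 0.404% and 0.468% of the counts in Control, 0.599% to 0.671% with TGF-beta and 0.466% to 0.516% with TGF-beta and K-80003. Mitochondrial transcripts took 1.16% to 1.73% of the counts with no separation by group. Of 12 stellate cell markers all were detected in every group, with a summed level of 10040 to 12225 CPM in Control, 13176 to 14663 CPM with TGF-beta and 6533 to 7238 CPM with K-80003. The most abundant of them were Col3a1, Vim and Reln, and 7 of the 12 were called lower with K-80003 against TGF-beta and 9 against Control. With TGF-beta against Control 1 marker, Col3a1, was called higher and 0 lower by edgeR. At an unadjusted p under 0.05, 2 were higher and 4 lower, with a median log2 difference of -0.29. Lrat, which stores vitamin A as esters, measured 939 ± 230 CPM in Control and 435 ± 60.4 CPM in TGF-beta cells (edgeR adjusted p = 0.053). In K-80003 cells Lrat measured 11.7 ± 0.962 CPM. Without Col3a1, itself a collagen counted again among the substrates, the other 11 markers summed to 7177 to 8954 CPM in Control, 7044 to 8340 CPM in TGF-beta cells and 5563 to 6244 CPM in K-80003 cells, so the higher sum with TGF-beta was that of Col3a1. Summed levels of other cell types' markers were lower. The 6 cholangiocyte markers summed to 358 to 502 CPM in Control, 127 to 156 CPM with TGF-beta and 99.6 to 114 CPM with K-80003. The 7 mesothelial markers summed to 533 to 766, 155 to 188 and 134 to 167 CPM. Most of that sum was Krt8 (356, 86.6 and 78.6 CPM) and Krt18 (257, 71.0 and 63.1 CPM). Msln measured 33.8, 8.85 and 8.14 CPM, but Wt1 2.25, 4.07 and 0.183 CPM, and Upk3b had only 3, 2 and 0 counts in the same order. The 7 endothelial markers summed to 281 to 405, 254 to 338 and 533 to 635 CPM in the same order of groups but went both ways: against Control, Cdh5, Kdr and Pecam1 were called higher with K-80003 (log2 1.46, 1.09 and 0.59), and the sinusoidal markers Lyve1 and Clec4g lower. Lyve1 went from 11.4 CPM in Control to 2.29 CPM in TGF-beta cells and 0.0848 CPM, or 3 counts in all, in K-80003 cells, and Clec4g from 11.7 to 0.732 and 0.461 CPM. The 7 portal fibroblast markers, nearly all Fbln2, summed to 52.2 to 78.7, 218 to 261 and 256 to 278 CPM. Among 7 hepatocyte markers, Cyp3a11 and Fabp1 had 1 and 3 counts in Control, 0 with TGF-beta and 28 and 36 with K-80003. The 7 hepatocyte markers summed to 79.5 to 218, 43.5 to 107 and 46.1 to 64.4 CPM. Apob made up most of that sum (140, 68.2 and 34.5 CPM). Alb measured 6.52 ± 1.34, 6.27 ± 0.409 and 13.7 ± 15.2 CPM, so the K-80003 libraries differed widely. Macrophage markers (7 genes) summed to 45.4 to 46.9, 45.7 to 47.6 and 24.0 to 29.0 CPM, lowest with K-80003. These marker levels moved with the groups, and their part in the members' differences was not tested. In bulk RNA, fewer cells of a type and less RNA per cell cannot be told apart.

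With TGF-beta, 5 of the 10 genes rose against Control: Plod2, P4ha3, P4ha2, Serpinh1 and Bmp1. K-80003 on top of TGF-beta lowered Plod2, P4ha3, Pcolce, P4ha1 and P4ha2, and left Plod2 and Pcolce below Control. A gene counts as called at an adjusted p under 0.05 in edgeR's quasi-likelihood test, adjusted over 15987 genes. Of all genes tested, 2.94% were called between TGF-beta and Control, 1.06% as higher and 1.88% as lower. Between K-80003 and TGF-beta 10.1% were called, 2.78% as higher and 7.32% as lower, and between K-80003 and Control 17.3%, 5.54% as higher and 11.7% as lower. The 2 of 10 members called between K-80003 and Control are thus near the share of all genes called there. The median log2 difference over the 10 genes was 0.75 for TGF-beta against Control, -0.59 for K-80003 against TGF-beta and 0.18 for K-80003 against Control, beside 0.01, 0.01 and 0.02 over all genes tested. The comparisons share libraries: the TGF-beta libraries serve in the first and second, so a high TGF-beta value raises the first difference and lowers the second at once.

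**Figure D1:**
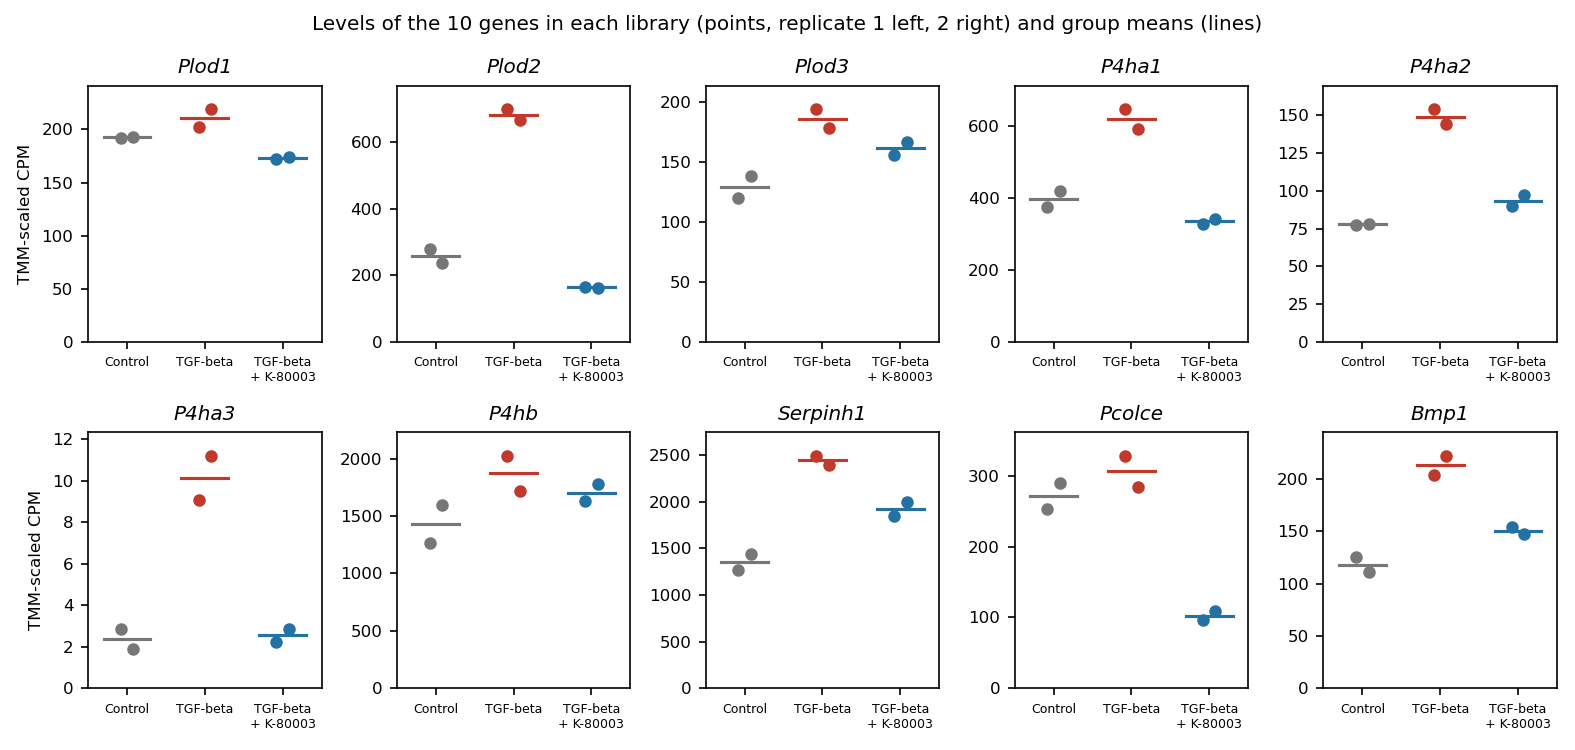
Level of each of the 10 genes in every library, as CPM (vertical axis from 0, one panel per gene) for the 3 groups. Points are libraries and lines are group means of 2 libraries; Plod2 stands at 237 and 279 CPM in Control, 667 and 700 CPM with TGF-beta and 162 and 165 CPM with K-80003.

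Plod2, the telopeptide lysyl hydroxylase (ENSMUSG00000032374, chr9:92424276-92490481, plus strand, GRCm39), measured 279 and 237 CPM in Control, 700 and 667 CPM with TGF-beta, and 165 and 162 CPM with TGF-beta and K-80003. The 3 groups did not overlap, and the K-80003 libraries were the lowest. Against Control, Plod2 rose by 1.40 on the log2 scale with TGF-beta (SE 0.15, adjusted p = 0.00942), a 2.65-fold difference. Against TGF-beta alone it fell by 2.06 on the log2 scale with K-80003 (SE 0.15, adjusted p = 0.00104), which is 4.18-fold lower, and it ended below Control by a log2 difference of -0.66 (SE 0.15, adjusted p = 0.0284). The fall against TGF-beta was called whichever library was left out, with adjusted p between 0.00125 and 0.0214. The rise lost its call without Control replicate 2 (adjusted p = 0.0558) or TGF-beta replicate 1 (0.0639), and the difference from Control lost it without Control replicate 1 (0.103), TGF-beta replicate 1 (0.0512), K-80003 replicate 1 (0.2) or K-80003 replicate 2 (0.221).

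Neither of the other lysyl hydroxylases was called in any comparison. Plod1, which mainly hydroxylates lysines in the helix (ENSMUSG00000019055, chr4:147994210-148021224, minus strand), measured 192 and 193 CPM in Control, 202 and 219 CPM with TGF-beta and 172 and 174 CPM with K-80003. Its groups did not overlap, yet none of its differences was called, with log2 values of 0.13 for TGF-beta against Control (adjusted p = 0.807) and -0.28 for K-80003 against TGF-beta (adjusted p = 0.29). Plod3, which also transfers the glucose onto galactosyl hydroxylysine (ENSMUSG00000004846, chr5:137015873-137025502, plus strand), measured 120 and 138 CPM in Control, 194 and 178 CPM with TGF-beta and 156 and 167 CPM with K-80003. It lay higher in both treated groups than in Control, by 0.53 (SE 0.15, adjusted p = 0.154) and 0.32 (SE 0.15, adjusted p = 0.212) on the log2 scale, without a call.

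The mix of lysyl hydroxylase transcripts differed between the groups. On the deposited FPKM scale, which divides counts by exonic length and library total and so allows levels of different genes to be compared, Plod2 made up 45.6% ± 4.24 (SD, n = 2) of the summed Plod1, Plod2 and Plod3 level in Control, 63.7% ± 0.566 in TGF-beta cells and 33.1% ± 0.99 in K-80003 cells. The Control libraries lay at 42.6% and 48.6%, the TGF-beta libraries at 63.3% and 64.1% and the K-80003 libraries at 32.4% and 33.8%, with no overlap. Plod3 took 27.2% ± 3.46, 20.6% ± 0.778 and 39.0% ± 1.2 in the same order, and so led the family per length with K-80003. That lead rests on the exonic lengths used, 6765 bases for Plod1, 5392 for Plod2 and 4519 for Plod3. In CPM, which is not divided by length, the K-80003 means were 173, 164 and 162, with Plod3 lowest. Plod1 took 27.1% ± 0.778, 15.7% ± 1.34 and 27.9% ± 0.283. The summed lysyl hydroxylase level was 108 ± 1.41 FPKM in Control, 188 ± 9.19 FPKM with TGF-beta and 93.6 ± 3.54 FPKM with K-80003. An exact two-sided permutation test of 2 libraries against 2 cannot go below p = 0.333, so no p is given for shares and ratios. Reads of the gene B430319G15Rik, which overlaps Plod2 on the other strand, summed to 289 against 37686 for Plod2, and those of Znhit1, which overlaps Plod3 on the other strand, to 2680 against 16445. The strand setting of the counting is not given in the sources used here. The counts also join the splice forms of Plod2.

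**Figure D2:**
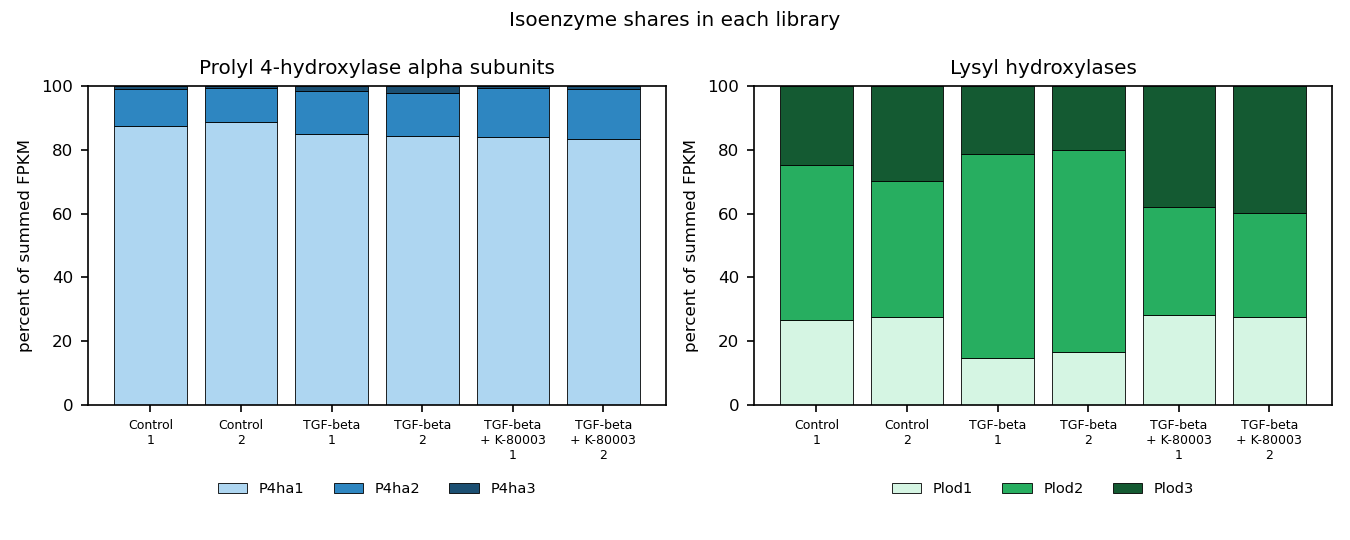
Stacked bars of each isoenzyme's share of the summed FPKM of its family, in percent, for the prolyl 4-hydroxylase alpha subunits (left) and the lysyl hydroxylases (right), 1 bar per library of the 3 groups. Plod2 went from 45.6% in Control to 63.7% in TGF-beta cells and 33.1% in K-80003 cells, while P4ha1 stayed between 83.5% and 88.6% in every library.

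All of the 3 alpha subunits of prolyl 4-hydroxylase, which carry the catalytic site, were lower with K-80003 than with TGF-beta alone. P4ha1, the major form in most mesenchymal cells (ENSMUSG00000019916, chr10:59159118-59209126, plus strand), measured 376 and 419 CPM in Control, 647 and 592 CPM with TGF-beta and 328 and 343 CPM with K-80003. The TGF-beta libraries stood above all others, but the difference from Control, 0.64 on the log2 scale (SE 0.14, adjusted p = 0.0828), was not called by edgeR, while DESeq2 called it (adjusted p = 0.0121). It fell by 0.88 with K-80003 against TGF-beta (SE 0.14, adjusted p = 0.0131), 1.85-fold. That call was lost without TGF-beta replicate 1 (0.0926), K-80003 replicate 1 (0.158) or K-80003 replicate 2 (0.139).

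P4ha2, the alpha subunit prominent in chondrocytes and induced in fibrosis (ENSMUSG00000018906, chr11:53990921-54022491, plus strand), measured 77.3 and 78.3 CPM in Control, 154 and 144 CPM with TGF-beta and 89.9 and 97.1 CPM with K-80003. No groups overlapped, and the K-80003 libraries lay between the other groups. P4ha2 rose by 0.94 with TGF-beta (SE 0.14, adjusted p = 0.0238) and fell by 0.67 with K-80003 (SE 0.14, adjusted p = 0.0294). The rise was not called when any 1 library was left out (adjusted p from 0.0904 to 0.176), nor in a fit to the 2 groups alone (0.0878). The fall kept its call only without Control replicate 1 (0.0425); the other 5 omissions, of Control replicate 2 and of each TGF-beta and K-80003 library, gave 0.0506 to 0.286, and limma on log2(FPKM + 1) gave 0.0589.

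P4ha3, the least abundant alpha subunit (ENSMUSG00000051048, chr7:99934727-99968906, plus strand), had 46 and 33 counts in Control, 160 and 182 in TGF-beta cells and 43 and 49 in K-80003 cells, or 2.88 and 1.91, 9.05 and 11.2, and 2.25 and 2.87 CPM. The TGF-beta libraries stood well apart, and the Control and K-80003 libraries overlapped. P4ha3 rose 4.23-fold with TGF-beta (log2 2.08, SE 0.29, adjusted p = 0.0191) and fell 3.95-fold with K-80003 against TGF-beta (log2 -1.98, SE 0.28, adjusted p = 0.00815). The rise lost its call without Control replicate 2 (0.0876), TGF-beta replicate 1 (0.0691) or TGF-beta replicate 2 (0.0918), and the fall without K-80003 replicate 1 (0.07) or replicate 2 (0.0505). Against Control the log2 difference with K-80003 was 0.10 (SE 0.30, adjusted p = 0.878), and it changed sign when Control replicate 2 (-0.19) or K-80003 replicate 2 (-0.08) was left out.

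P4hb, the beta subunit that holds the alpha subunits in solution and is also a disulfide isomerase in its own right (ENSMUSG00000025130, chr11:120451124-120464079, minus strand), measured 1261 and 1592 CPM in Control, 2024 and 1719 CPM with TGF-beta and 1628 and 1776 CPM with K-80003. The last pair of groups overlapped. Its log2 differences of 0.39 with TGF-beta (SE 0.17, adjusted p = 0.379) and -0.14 with K-80003 against TGF-beta (SE 0.17, adjusted p = 0.727) were not called. The FPKM of P4hb was 6.11 ± 0.156 times the summed FPKM of the alpha subunits in K-80003 cells, against 3.67 ± 0.219 in TGF-beta cells and 4.53 ± 0.445 in Control (SD, n = 2). The ranges, 6.0 to 6.22, 3.52 to 3.83 and 4.21 to 4.84, did not overlap. Within the alpha subunits P4ha1 made up 87.9% ± 0.919, 84.7% ± 0.424 and 83.8% ± 0.424 across Control, TGF-beta and K-80003, P4ha2 11.4% ± 0.636, 13.4% ± 0.0707 and 15.4% ± 0.283, and P4ha3 0.703% ± 0.25, 1.83% ± 0.382 and 0.837% ± 0.115.

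Serpinh1, the collagen-specific chaperone HSP47 (ENSMUSG00000070436, chr7:98994583-99002446, minus strand), was the most abundant of the 10 genes per length in every group, at 572 FPKM in Control, 950 FPKM with TGF-beta and 805 FPKM with K-80003. Its CPM were 1271 and 1437 in Control, 2494 and 2400 in TGF-beta cells, and 1853 and 1999 in K-80003 cells. No groups overlapped, and the K-80003 libraries lay between the other groups. Serpinh1 rose by 0.85 on the log2 scale with TGF-beta (SE 0.14, adjusted p = 0.0333), 1.81-fold. The call was lost when any 1 library was left out (adjusted p from 0.104 to 0.208), with upper-quartile scaling (0.0513), in a fit to the 2 groups alone (0.118) and with limma on log2(FPKM + 1) (0.22). The difference of K-80003 from TGF-beta was -0.35 (SE 0.14, adjusted p = 0.205), not called. Against Control it was 0.51 (SE 0.14, adjusted p = 0.0536), just outside the threshold and just inside it with median-of-ratios scaling (0.0498) or DESeq2 (0.0282).

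Pcolce and Bmp1 act together on the C-terminal propeptide; Pcolce was called lower with K-80003, and Bmp1 was called higher with TGF-beta. Pcolce, the enhancer that binds the propeptide and speeds its cleavage (ENSMUSG00000029718, chr5:137603365-137612046, minus strand), measured 253 and 289 CPM in Control, 328 and 284 CPM with TGF-beta and 96.0 and 109 CPM with K-80003. Control and TGF-beta overlapped, their log2 values differing by 0.17 (SE 0.16, adjusted p = 0.764), and the K-80003 libraries were far below both. Pcolce fell by 1.58 with K-80003 against TGF-beta (SE 0.16, adjusted p = 0.00269), 2.99-fold, and stood 2.65-fold below Control (log2 -1.41, SE 0.16, adjusted p = 0.00266). Both calls held whichever library was left out, with adjusted p up to 0.0444 and 0.0414. Fbxo24, on the same strand, and Gm36266, on the other, overlap Pcolce and held 90 and 131 counts against 23120.

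Bmp1, the procollagen C-proteinase (ENSMUSG00000022098, chr14:70711998-70757674, minus strand), measured 125 and 111 CPM in Control, 204 and 222 CPM with TGF-beta and 154 and 147 CPM with K-80003. No groups overlapped. It rose by 0.85 with TGF-beta (SE 0.15, adjusted p = 0.0377), a call lost when any 1 library was left out (adjusted p from 0.0992 to 0.188) and in a fit to the 2 groups alone (0.123). With K-80003 the log2 difference from TGF-beta was -0.50 (SE 0.14, adjusted p = 0.0894) and that from Control 0.35 (SE 0.14, adjusted p = 0.159), neither called. The counts join the short BMP1 and the longer tolloid splice form, which both come from this gene.

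**Figure D3:**
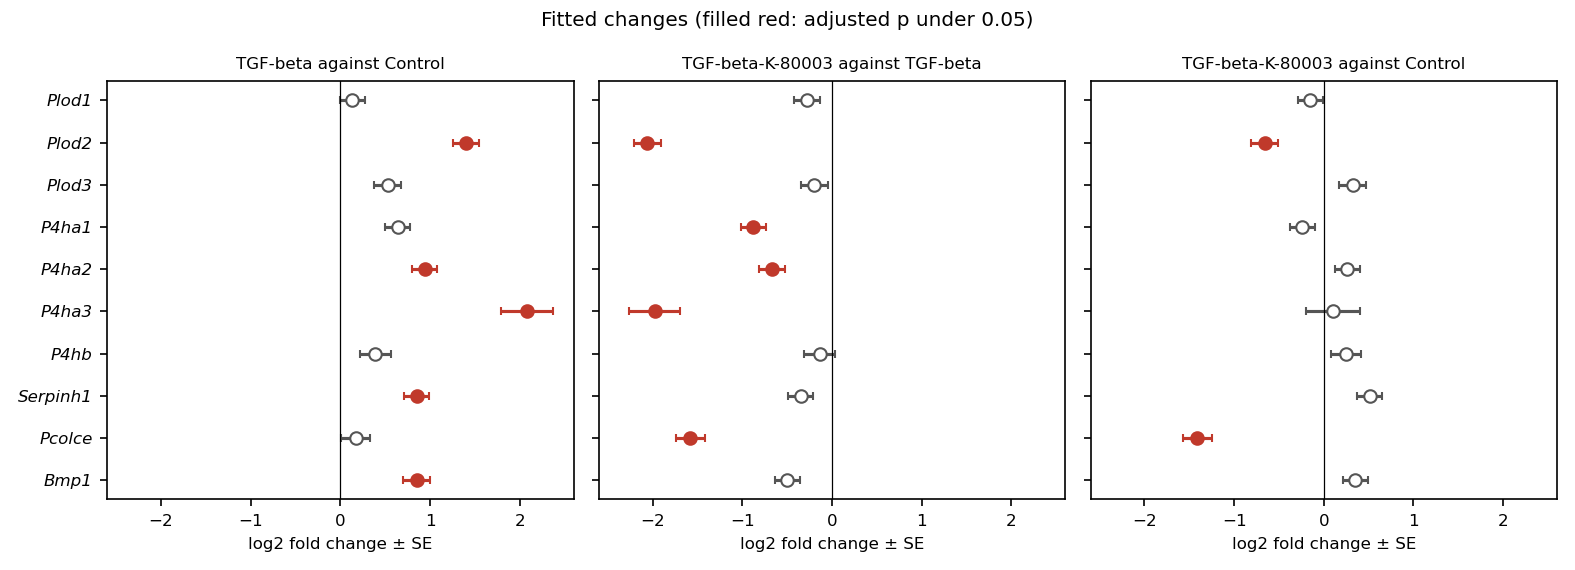
Log2 fold change of each of the 10 genes (points, with bars of 1 SE from edgeR's fit to 6 libraries) for TGF-beta against Control, TGF-beta-K-80003 against TGF-beta and TGF-beta-K-80003 against Control, with called genes filled red. Plod2 moved from 1.40 to -2.06 across the first and second comparison, while Pcolce lay at 0.17 and -1.58.

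Counted over the members, 5 were called higher with TGF-beta, but only 0 to 2 when 1 library was left out: 2 without Control replicate 1, 0 without Control replicate 2, 0 without TGF-beta replicate 1, 1 without TGF-beta replicate 2 and 2 without either K-80003 library. Of the 5 called lower with K-80003 against TGF-beta, the count was 3 without TGF-beta replicate 1 and 2 without either K-80003 library, and 4 or 5 otherwise. Plod2 and Pcolce were the 2 called lower against Control, with 1 or 2 called as each library was left out; the count was 1 without Control replicate 1, TGF-beta replicate 1, K-80003 replicate 1 or K-80003 replicate 2.

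The order of the genes by level changed little between groups. Per length, Serpinh1, P4hb and P4ha1 led in all 3, and P4ha2 and P4ha3 came last. Plod2 held rank 5 of 10 in Control (49.3 FPKM), rank 4 with TGF-beta (120 FPKM) and rank 5 with K-80003 (31.0 FPKM), where Plod3 (36.5 FPKM) passed it. Pcolce went from rank 4 in Control (73.2 FPKM) to rank 5 with TGF-beta (75.9 FPKM) and rank 6 with K-80003 (27.4 FPKM). Plod3 and Plod1 in Control (29.5 and 29.3 FPKM) and Bmp1 and P4ha2 with TGF-beta (22.8 and 22.7 FPKM) were neighbours at nearly equal levels.

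Set against the collagen they serve, nearly all of the 10 genes were lower per unit of Col1a1, the main fibrillar collagen chain, with TGF-beta than in Control. Col1a1 itself rose from 1438 ± 27.4 CPM in Control to 4556 ± 531 CPM with TGF-beta (log2 1.66, adjusted p = 0.00742) and fell to 2273 ± 69.1 CPM with K-80003 (log2 -1.0, adjusted p = 0.00833). Acta2, the actin of activated stellate cells, measured 2515 ± 462, 5019 ± 680 and 993 ± 94.7 CPM in the same order, a log2 difference of 1.0 for TGF-beta (adjusted p = 0.0512, not called) and a fall of -2.34 when K-80003 was added (adjusted p = 0.00149). Serpinh1 stood at 253% ± 17.0 of the Col1a1 FPKM in Control, 146% ± 20.5 in TGF-beta cells and 228% ± 19.1 in K-80003 cells, and P4hb at 227% ± 32.5, 95.5% ± 21.9 and 172% ± 15.6. For both, the TGF-beta libraries were below all of the others. P4ha1 stood at 44.1% ± 2.55, 21.9% ± 3.96 and 23.6% ± 1.48, with the K-80003 libraries inside the range of the TGF-beta libraries. Pcolce stood at 32.4% ± 2.47, 11.7% ± 2.57 and 7.75% ± 0.926, and Plod2 at 21.9% ± 2.97, 18.4% ± 2.76 and 8.77% ± 0.141. Plod2 was thus the gene whose Control and TGF-beta ratios overlapped, and P4ha3, at 0.35% ± 0.108, 0.465% ± 0.0163 and 0.237% ± 0.0474, the gene whose ratio was higher with TGF-beta. Plod1 (13.0%, 4.49% and 7.39%), Plod3 (13.1%, 5.99% and 10.3%), P4ha2 (5.69%, 3.48% and 4.33%) and Bmp1 (6.07%, 3.48% and 4.91%) had their lowest mean with TGF-beta. Because the denominator itself changed between groups, these ratios describe unequal change and carry no test.

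**Figure D4:**
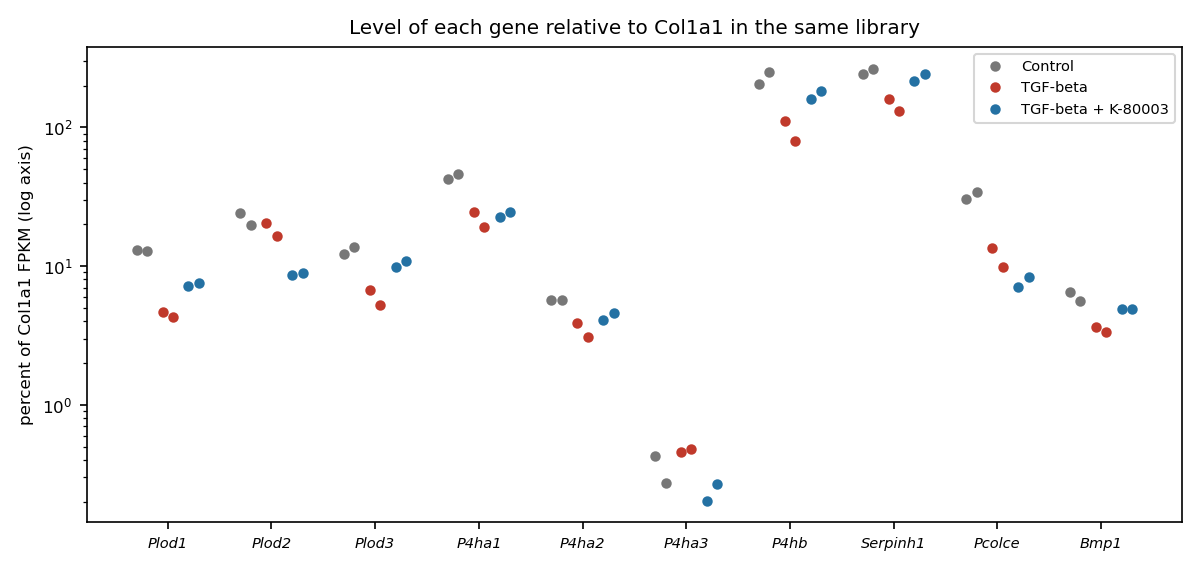
FPKM of each of the 10 genes as a percent of the Col1a1 FPKM of the same library, on a log axis, in each library of the 3 groups. Serpinh1 went from 253% to 146% and 228%, Pcolce from 32.4% to 11.7% and 7.75%, and Plod2 from 21.9% to 18.4% and 8.77%.

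The promoter windows of the 3 alpha subunits, Serpinh1 and Pcolce are shown because P4ha1, P4ha2 and P4ha3 were lowered together with K-80003, Serpinh1 was not called lower, and Pcolce fell without a called rise. Each is the run of 250 bases before the gene's annotated start, 5′ to 3′ on the gene's strand, from RefSeq on GRCm38.p6, which is not the build of the counts. They lie at chr10:59323046-59323295 (plus strand), chr11:54100674-54100923 (plus strand), chr7:100285270-100285519 (plus strand), chr7:99353240-99353489 (minus strand) and chr5:137611405-137611654 (minus strand). Capitals mark the cores of the hypoxia response element, ACGTG and GCGTG, on either strand, as hydroxylase genes are known targets of hypoxia-inducible factors. The table held 8 of the 10 genes, all but Plod2 and Bmp1.
P4ha1: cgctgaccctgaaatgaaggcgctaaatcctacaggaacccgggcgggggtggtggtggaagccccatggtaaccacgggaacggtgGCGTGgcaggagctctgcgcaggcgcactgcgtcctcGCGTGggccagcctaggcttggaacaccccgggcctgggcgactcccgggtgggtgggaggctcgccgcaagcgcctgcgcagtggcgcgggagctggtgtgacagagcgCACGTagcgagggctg
P4ha2: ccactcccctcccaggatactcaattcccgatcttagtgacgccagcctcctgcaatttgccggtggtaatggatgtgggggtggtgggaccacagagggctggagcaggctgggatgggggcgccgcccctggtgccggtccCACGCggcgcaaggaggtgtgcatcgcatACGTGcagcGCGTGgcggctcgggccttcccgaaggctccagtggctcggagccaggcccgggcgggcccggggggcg
P4ha3: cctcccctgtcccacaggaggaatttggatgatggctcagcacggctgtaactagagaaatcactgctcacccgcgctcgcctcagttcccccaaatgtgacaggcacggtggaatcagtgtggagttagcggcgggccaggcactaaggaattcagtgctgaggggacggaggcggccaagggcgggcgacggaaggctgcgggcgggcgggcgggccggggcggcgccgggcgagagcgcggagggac
Serpinh1: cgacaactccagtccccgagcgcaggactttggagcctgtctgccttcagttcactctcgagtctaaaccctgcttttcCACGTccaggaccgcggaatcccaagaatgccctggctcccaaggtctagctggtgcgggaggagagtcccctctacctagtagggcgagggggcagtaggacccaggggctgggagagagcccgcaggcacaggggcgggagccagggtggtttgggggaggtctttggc
Pcolce: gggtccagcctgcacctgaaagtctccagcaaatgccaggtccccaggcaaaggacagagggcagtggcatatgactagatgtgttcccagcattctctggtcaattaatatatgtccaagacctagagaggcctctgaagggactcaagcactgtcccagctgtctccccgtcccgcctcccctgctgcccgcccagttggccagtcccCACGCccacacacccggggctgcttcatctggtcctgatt

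ACGTG, searched on both strands, was present in 5 of the 8 windows (P4ha1, P4ha2, P4hb, Plod3 and Serpinh1), against 16.6% of 32851 promoter windows of this length. GCGTG was present in 6 of 8, against 28.2%. The letters of P4ha3 held neither core. The Serpinh1 window had 1 ACGTG and no GCGTG, and the Pcolce window 1 GCGTG. In P4ha2 the ACGTG begins 78 bases before the start and a GCGTG 69 bases before it, so both sit close together on the gene strand. The GC box GGGCGG was present in 7 of 8, against 32.7%, with 5 matches in P4ha3. These windows are rich in G and C, from 55.6% to 70.0% beside a median of 52.4% over all promoters, and the shares were not matched for that composition. CAGAC, the SMAD binding element through which TGF-beta signalling acts, was present in 2 of 8 (Plod1 and Serpinh1), against 42.2%. The CCAAT box was present in 2 of 8 (33.8% of promoters) and TATAAA in 1 of 8 (12.4%). The endoplasmic reticulum stress element, CCAAT and CCACG with 9 bases between them (0.113% of promoters), the amino acid response core, TGATG followed by any base, AA and any base (3.44%), and the heat shock element, GAA, TTC and GAA with 2 bases between each (0.466%), had no match in these windows. ACGTG can overlap its own reverse complement, and the stress element contains CCAAT. A match describes letters only.

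Beyond the members, the genes that fold and modify procollagen beside them were called in 1 direction with TGF-beta. Of 14 folding and modification partners, 5 rose and 0 fell (median log2 0.48), among them Fkbp10, a proline isomerase needed for telopeptide lysine hydroxylation (log2 1.13, adjusted p = 0.0161), the prolyl 3-hydroxylase P3h1 (0.92, 0.0232), the isomerase Fkbp14 (0.89, 0.0243) and P3h4, a partner of PLOD1 (0.93, 0.0316). The count was 0 whichever library was left out. With K-80003 against TGF-beta only Fkbp14 fell (-0.71, adjusted p = 0.0217; median of the list -0.37), a call lost in each of the 4 omissions of a treated library. Against Control, P3h1 (0.79, adjusted p = 0.0106) and Fkbp10 (0.63, 0.0302) were higher with K-80003 and 0 genes were lower (median 0.14). That count was 1 higher without Control replicate 1 or either TGF-beta library, 1 lower without Control replicate 2, and 0 without either K-80003 library.

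Among 12 genes of procollagen export, TGF-beta raised Creb3l1, a collagen-inducing transcription factor of the endoplasmic reticulum membrane (log2 1.22, adjusted p = 0.0163), and Sec23a, a coat protein of export vesicles (0.89, 0.0293), with a median of 0.55 over the list. The count fell to 1 without Control replicate 1 and to 0 without any other library. Against TGF-beta, K-80003 raised Mia2, a receptor of export sites (0.64, adjusted p = 0.0395; median -0.17), a call kept only without Control replicate 1. Against Control, 4 of 12 were higher with K-80003 (Creb3l1, Creb3l2, Mia2 and Sec23a, log2 0.79, 1.16, 0.74 and 0.61) and 0 lower (median 0.52). That count was 4 without Control replicate 1, 3 without either TGF-beta library, and 0 without Control replicate 2, K-80003 replicate 1 or K-80003 replicate 2.

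Pcolce was not the only propeptide processing gene to be lower with K-80003. Of 12 other propeptide proteinases and enhancers, 9 were tested. Against TGF-beta, Pcsk5, a proprotein convertase (log2 -2.32, adjusted p = 0.00138), Adamts2, the procollagen N-proteinase (-1.72, 0.00282), and Sfrp2, a modulator of BMP1 activity (-2.76, 0.0255), fell with K-80003, and 0 rose (median -1.20). The number called lower was between 2 and 4 when 1 library was left out, at 2 without TGF-beta replicate 2 or K-80003 replicate 1. With TGF-beta the only call was a rise of Pcolce2, the second C-proteinase enhancer (1.44, adjusted p = 0.0424; median 0.41), lost when any 1 library was left out. Against Control, K-80003 had 2 higher and 4 lower (median -0.80): Pcolce2 was higher (1.71, adjusted p = 0.00651), while Pcsk5 (-1.91), Sfrp2 (-2.95) and Adamts2 (-0.80, 0.0274) were lower. The total of 6 was 3 without Control replicate 1, 2 without K-80003 replicate 1 and 3 without K-80003 replicate 2. Pcolce and Pcolce2 therefore stood on opposite sides of Control with K-80003. Pcolce2 was far scarcer, at 2.34 CPM in Control, 6.35 CPM with TGF-beta and 7.67 CPM with K-80003. Pcolce averaged 271, 306 and 102 CPM in the same order. The Pcolce2 level was thus already above Control with TGF-beta alone.

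The collagen chains are the substrates of these enzymes. Of 18 fibril-forming and associated collagens tested, 6 rose and 0 fell with TGF-beta (median log2 0.70), led by Col11a1 (3.51, adjusted p = 0.006) and Col1a1, with 4 to 6 called when 1 library was left out: 4 without any library but Control replicate 1. Against TGF-beta, 11 fell and 1 rose with K-80003 (median -1.08), including Col3a1 (-2.67, adjusted p = 0.000456), Col11a1 (-4.91, 0.00064) and Col1a2 (-1.45, 0.00178). Col11a1 was scarce, at 1.33 CPM in Control, 15.2 CPM with TGF-beta and 0.496 CPM, or 18 counts in all, with K-80003. The number lower was 7 without K-80003 replicate 1 and 5 without K-80003 replicate 2, and 11 or 12 otherwise. Against Control 8 were lower and 3 higher (median -0.14), and 6 to 8 lower with 0 to 2 higher as libraries were left out; the total of 11 was 7 without Control replicate 1 and 6 without Control replicate 2 or any K-80003 library.

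General chaperones of the endoplasmic reticulum fold all secreted proteins. Of 17 such genes, 4 rose and 0 fell with K-80003 against TGF-beta (median log2 0.33): Ero1a, the oxidase that recharges disulfide isomerases (1.21, adjusted p = 0.0042), the co-chaperones Hyou1 (0.70, 0.0241) and Dnajb9 (0.86, 0.0249), and Hspa5, the central chaperone BiP (0.84, 0.0419). The count was 1 when a TGF-beta library was left out and 0 when a K-80003 library was. Against Control 7 of 17 were higher with K-80003 and 0 lower (median 0.65), with 5 called without any Control or TGF-beta library, and 2 when a K-80003 library was left out; Hspa5 had a log2 difference of 1.27 (adjusted p = 0.00704). TGF-beta alone raised Txndc5, a disulfide isomerase linked to fibrosis (0.73, adjusted p = 0.0483), among 17 (median 0.36), a call lost when any 1 library was left out. P4hb, itself a disulfide isomerase, was not called in any comparison.

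The hypoxia-response list, given because the hydroxylase genes are known hypoxia targets, did not move in one direction. With TGF-beta 0 of 15 genes were called by edgeR in either direction (median log2 0.09), with 4 higher and 5 lower at an unadjusted p under 0.05 and 3 lower by DESeq2. With K-80003 against TGF-beta, Vegfa (1.19, adjusted p = 0.00508) and Ndrg1 (1.21, 0.00693) rose, and 4 fell, led by Adm (-2.13, 0.00181) and Pfkfb3 (-1.42, 0.0119), with a median of -0.28. The total of 6 was 4 without TGF-beta replicate 1, 3 without TGF-beta replicate 2 and 1 without either K-80003 library. Against Control 2 were higher and 3 lower (median -0.29), and 1 higher with 2 lower without Control replicate 1 or any K-80003 library. Of 9 genes of iron, zinc or ascorbate transport and iron storage, listed for the cofactors of the hydroxylases, 0 were called with TGF-beta by edgeR (median 0.26), with 2 higher and 1 lower at an unadjusted p under 0.05 and 1 lower by DESeq2. With K-80003 against TGF-beta the iron exporter Slc40a1 rose (1.12, adjusted p = 0.00644) and the zinc transporter Slc39a13, whose loss in humans impairs lysyl hydroxylation, fell (-0.78, 0.0204), with a median of 0.56. The total of 2 was 1 without TGF-beta replicate 1 and 0 without TGF-beta replicate 2 or any K-80003 library. Against Control Slc39a14 (1.28), Slc11a2 (0.74) and Tfrc (0.66), which bring iron into the cell, were higher with K-80003 (median 0.66); the count was 1 without Control replicate 2 and 0 without either K-80003 library.

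**Figure D5:**
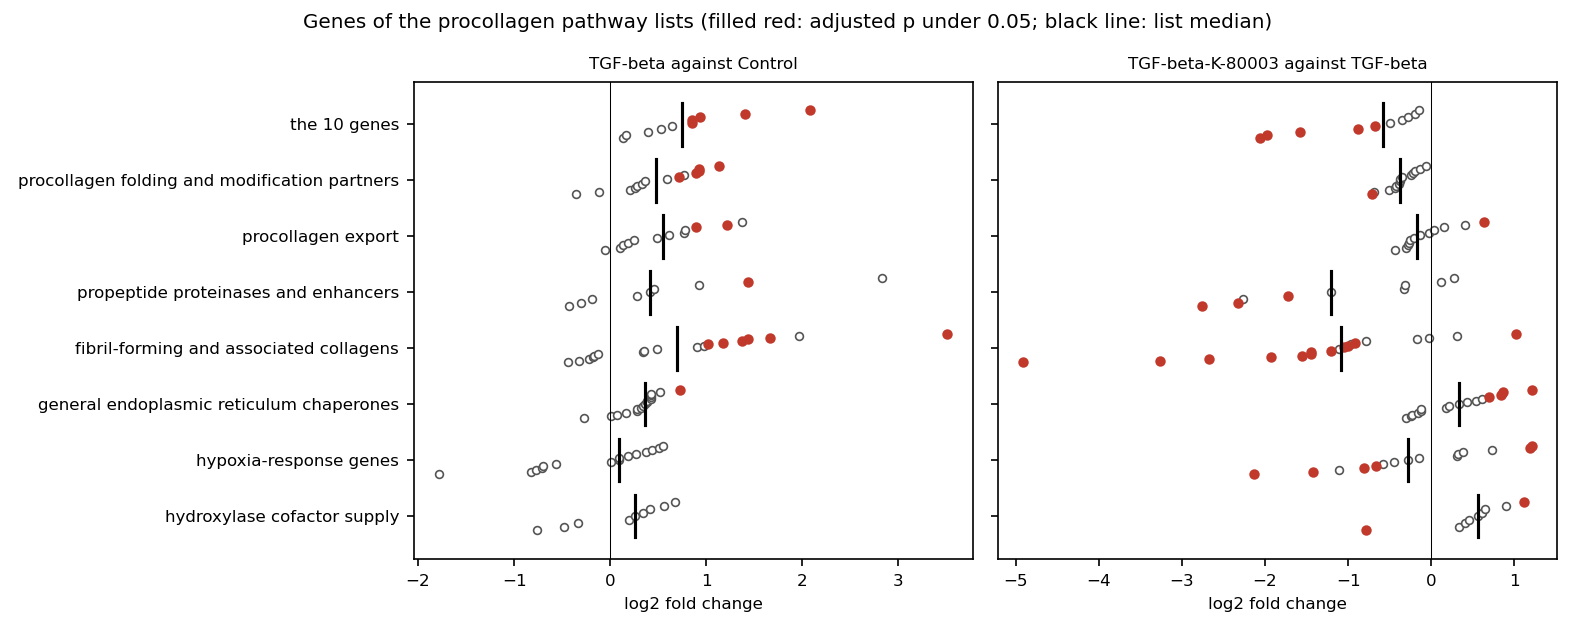
Log2 fold change of every tested gene of the 10 members and of the 7 lists of neighbouring pathways, for TGF-beta against Control (left) and TGF-beta-K-80003 against TGF-beta (right), with called genes filled red, list medians as black lines and vertical offsets only to separate points. The medians of the collagens were 0.70 for TGF-beta and -1.08 for the addition of K-80003, with those of the general chaperones 0.36 and 0.33.

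For each member called in any comparison, the 3 genes of nearest pattern were taken over the 6 libraries, as the smallest root mean square difference of centred log2 CPM among 7301 genes. Plod2 was nearest to Kcne4 (0.0808), Tmem45a (0.18) and P2ry14 (0.222). P4ha1 was nearest to Pdk3 (0.047), Slc39a13 (0.0476) and Ctps (0.0626), and P4ha2 to Fkbp14 (0.0481), Ckap4 (0.061) and Smad7 (0.0935). P4ha3, with its low counts, had Fzd2 (0.243), Loxl1 (0.272) and Pdzrn3 (0.297) as the nearest. Serpinh1 was nearest to Rftn2 (0.0513), Zdhhc16 (0.0664) and Bmper (0.075), Pcolce to Frzb (0.0489), Art3 (0.0855) and Pkig (0.094), and Bmp1 to Vgll3 (0.0574), Slc35f6 (0.0641) and Grk5 (0.0742). Slc39a13 and Fkbp14 belong to lists above, and no other of these neighbours does. Among the members themselves the nearest pairs were Plod3 with P4hb (0.0727), P4ha2 with Bmp1 (0.122) and Plod3 with Serpinh1 (0.136).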

How the data were processed

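Bulk RNA sequencing of 6 libraries in 3 groups was used. Read counts and FPKM values per gene and library were taken from the authors' deposited table. The counts deposited by the authors are whole numbers and not normalized. The FPKM values deposited by the authors are each count over exonic length and over the library total, with no other scaling. HISAT2 2.0.1, HTSeq 0.6.1, cutadapt 1.9.1, Cufflinks 2.2.1, SAMtools 0.1.19 and DESeq2, with the build GRCm39, are named without roles, per the submitters' processing notes. The strand setting is not given in the sources used here.

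Genes were kept by edgeR's filterByExpr (minimum count 10, minimum total 15), which left 15987 genes and dropped 0.13% of the counts. After TMM scaling, all 6 libraries entered 1 fit of edgeR 4.0.16 (R 4.3.3), with group as the only term and 3 residual degrees of freedom, and the quasi-likelihood test was two-sided with Benjamini-Hochberg adjustment over all genes tested. Values are mean ± SD over 2 libraries. The SE of a log2 fold change was derived from the fit, as its absolute value over the square root of the quasi-likelihood F statistic. The procedure was tested on counts simulated with a common dispersion of 0.038 for all genes and no deviations shared between libraries. Such counts do not stand for the spread of these libraries. Replicates differed by more than sampling noise (chi-square per degree of freedom of 20.2 to 51).

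Genes named are the 10 members, Col1a1, Col1a2, Acta2, up to 4 called genes per list and comparison with the smallest p, the most abundant stellate markers and the 3 nearest genes of each called member (mean FPKM of at least 5). Lists, members and rules were chosen with earlier results of these data known. Alternatives were median-of-ratios and upper-quartile scaling, no filter, DESeq2 1.42.0, limma 3.58.1 on log2(FPKM + 1) or log2(FPKM + 0.1), a mean FPKM of at least 1, fits to 2 groups alone, a replicate block and the omission of each library. A replicate block with the TGF-beta numbers crossed was added after seeing the data. Figures were drawn with matplotlib 3.10.9.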

Additional observations from a re-analysis of the deposited data

How the results depend on the processing

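Over all alternatives, 408 values of a member's log2 fold change kept direction and side of the threshold. Of the others, 55 lost the call, 15 gained one and 2 changed sign. The 408 include values called in neither fit, and only a call of the main fit could be lost. That fit called 5 members for TGF-beta against Control, 5 for K-80003 against TGF-beta and 2 for K-80003 against Control. Of the 15 gained, 12 came from the replicate block with the TGF-beta numbers crossed, a pairing chosen after seeing the data. The other gains were 2 with DESeq2 and 1 with median-of-ratios scaling. Both changes of sign were of P4ha3 with K-80003 against Control, not called. Its log2 difference ran from -0.19 without Control replicate 2 to 0.41 without Control replicate 1, and was -0.08 without K-80003 replicate 2.

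For TGF-beta against Control, 470 genes were called, against 1143 with no low-count filter, 846 with DESeq2 and 199 in a fit to the 2 groups alone, and 89 to 218 as 1 library was left out; members called were 5, against 2 in the fit to 2 groups and 0 to 2 as 1 library was left out. For K-80003 against TGF-beta, 1616 genes were called, against 2492 with no filter and 451 to 1661 with 1 library left out; members called were 5, against 2 to 5. For K-80003 against Control, 2758 genes were called, against 3475 with no filter, 2975 with DESeq2 and 996 to 2397 with 1 library left out. Members called there were 2, against 3 with median-of-ratios scaling or DESeq2, and 1 to 2 with 1 library left out. The cause of these differences was not tested. Fits with a library left out or to 2 groups alone also hold fewer libraries than the main fit.

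The replicate numbers did not line up alike in all groups. Deviations of replicate 1 from its group mean correlated negatively between Control and TGF-beta (-0.636) and between TGF-beta and K-80003 (-0.476). Between Control and K-80003 the correlation was positive (0.504). The main fit has no term for such deviations, and their source was not tested. With the replicate number as a block, genes called were 40, 792 and 1564 in the 3 comparisons in the same order, and members called 0, 3 and 1. List counts with the block, in the order folding partners, export, propeptide genes, collagens, chaperones, hypoxia genes and cofactor genes, were 0, 0, 0, 1, 0, 0 and 0 for TGF-beta against Control, 0, 0, 2, 10, 1, 4 and 1 for K-80003 against TGF-beta, and 0, 0, 3, 6, 5, 3 and 1 against Control. With the TGF-beta numbers crossed, a pairing chosen after seeing the data, the block gave 3708, 5903 and 7352 genes, 8, 8 and 8 members, and list counts in the same order of 11, 7, 6, 14, 13, 9 and 7, of 10, 5, 6, 16, 12, 12 and 8, and of 5, 9, 9, 14, 14, 11 and 7.

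Of the genes called, 36.2% were higher with TGF-beta against Control, 27.5% with K-80003 against TGF-beta and 32.1% with K-80003 against Control; for the former pair limma on log2(FPKM + 1) gave 22.9% and 40.2%, on log2(FPKM + 0.1) 25.7% and 37.9%, and with a mean FPKM of at least 1 it gave 39.2% for K-80003 against TGF-beta. As 1 library was left out the share ran from 35.3% to 52.8%, 16.9% to 27.8% and 20.7% to 27.2%; TGF-beta replicate 1 gave the 52.8% and the 16.9%, and K-80003 replicate 1 the 20.7%. The share was 45%, 20.2% and 23.9% with the block and 51.2%, 46.6% and 50.3% with the crossed block. With log2(FPKM + 0.1) the median of all genes lay at -0.10 and 0.11. List counts under the other scalings, filters, tools and the fit to 2 groups alone, with neither block nor omission, ran, for TGF-beta against Control, from 0 to 6 for folding partners, 0 to 5 for export, 0 to 3 for propeptide genes, 4 to 9 for collagens, 0 to 1 for chaperones, 0 to 3 for hypoxia genes and 0 to 1 for cofactor genes. For K-80003 against TGF-beta they ran from 1 to 2, 0 to 1, 3 to 5, 11 to 15, 3 to 6, 4 to 7 and 2 to 5, and against Control from 1 to 3, 3 to 5, 4 to 8, 8 to 11, 5 to 10, 3 to 5 and 3 to 4. With 2 libraries a group, P4ha3 at 33 to 182 counts was the member with the widest error.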
